A study of Homo sapiens with 10 samples.

Results

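The nucleotide and folate synthesis enzymes described here are 39 genes that build, salvage and interconvert the purine and pyrimidine precursors of RNA and DNA. They were chosen by name, as protein-coding entries with these symbols among the 60603 genes of the deposited tables, and all 39 were found there. NB4 is a cell line from acute promyelocytic leukemia, and its mRNA was sequenced in 2 experiments. In the GSE1 knockdown experiment, cells transduced with the empty pLKO.1 puro lentiviral vector (EV) were compared, 48 h later, with cells given the hairpin shA1 or the hairpin shB2, both directed at GSE1. In the LSD1 inhibition experiment, untransduced cells received DMSO or 2 µM of the LSD1 inhibitor MC2580 for 24 h, and the sample titles write this compound as MC280. Each of the 5 conditions has 2 replicate libraries. All groups are the same cell line, and the control for the hairpins is a vector without a hairpin.

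The level used here is the base mean, which is the authors' mean of gene counts divided by size factors, taken to run over all libraries of an experiment. On that reading it covers 6 libraries in the GSE1 knockdown experiment, 4 of them with a hairpin. In the LSD1 inhibition experiment it covers 4 libraries, 2 of them with MC2580. The column used for the GSE1 knockdown experiment is headed for shB2, and whether the shA1 libraries are in its mean is not stated. With 1 mean per gene and experiment, no value per library, standard deviation or test between conditions can be given, and how an enzyme responded to a hairpin or to MC2580 is not described. The depth of each library is unknown for the same reason. The base means of all genes summed to 40543130 and 41201112, and the 39 enzymes held 0.634% and 0.682% of these sums in the GSE1 knockdown and LSD1 inhibition experiments.

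Cells make purine nucleotides from phosphoribosyl pyrophosphate (PRPP) in a chain of steps that ends in IMP, from which AMP and GMP branch off. Pyrimidine nucleotides are made around orotate, which is joined to PRPP and decarboxylated to UMP. The folate cycle carries the carbon units that the purine ring and thymidylate need, and ribonucleotide reductase turns ribonucleotides into the deoxyribonucleotides of DNA. Salvage enzymes rebuild nucleotides from free bases and nucleosides. Dividing leukemia cells draw on these routes, several of which are targets of antimetabolite drugs.

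Of the marker genes used to check the label, MPO, the myeloperoxidase of promyelocytic granules, had base means of 506765 and 824818 in the knockdown and inhibition experiments, and CD33 had 2860 and 2728. The myeloid markers CTSG, PRTN3 and AZU1 had base means of 4012 and 6435, 2511 and 4358, and 723 and 1814. ELANE, the neutrophil elastase gene, was near 0, with base means of 1.10 and 3.87. Of the markers of other cell types, CD3D had base means of 866 and 869, ITGA2B of 660 and 549 and EPCAM of 432 and 403, while PF4 and PPBP were listed at 0 in both experiments. The proliferation markers MKI67, TOP2A and PCNA had base means of 35204, 18391 and 14630 in the knockdown experiment and of 20532, 9690 and 14792 in the inhibition experiment. GSE1 itself had base means of 2963 and 4441, and KDM1A, which encodes LSD1, of 7648 and 6285.

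The purine genes PPAT and PAICS start back to back, and the stretch between their start sites is shown because the levels of this pair are compared below. PPAT begins at position 56435615 on the minus strand and PAICS at 56435752 on the plus strand of chromosome 4 (RefSeq, GRCh38.p14). The stretch between them, chr4:56435616-56435751, is 136 bases long and is printed on the plus strand. Its G and C content is 75%, and the capitals mark 3 copies of GGGCGG, the letters of a GC box.
PPAT-PAICS: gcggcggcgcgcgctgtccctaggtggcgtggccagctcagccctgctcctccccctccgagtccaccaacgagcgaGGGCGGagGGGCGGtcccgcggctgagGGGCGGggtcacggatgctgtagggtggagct

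RefSeq start-site windows, from 250 bases before to 50 after a start, were given for 35 of the 39 enzymes. Searched on both strands were 9 short letter strings, chosen with their counts known. CACGTG, the E-box bound by MYC and related factors, was in a window of 8 of the 35 genes (22.9%), against 8.77% of 27305 genes with a window. GGGCGG was in a window of 27 of the 35 genes (77.1%), against 48.3% of all. CGCGCG was in 42.9% against 19.03% and CCAAT, a common promoter box, in 42.9% against 39.7%. CCGGAAG, letters bound by ETS factors, was in 17.1% against 12.2%. The other 4 strings resemble sites of E2F factors and were each in 1 to 4 of the 35 genes. TTTGGCGC was in 8.57% against 0.795%, TTTCCCGC in 11.4% against 1.98%, TTTGGCGG in 2.86% against 0.809% and TTCCCGCC in 11.4% against 3.79%. TTTCCCGC and TTCCCGCC can overlap in 1 stretch. A gene counts when any of its windows holds the string. The 35 enzymes have 54 windows and the 27305 genes have 35116, so the enzymes have more windows per gene. The 27305 are also more than the 19975 protein-coding genes of this series, so the comparison set holds other genes too. The shares were adjusted for neither. These shares are descriptions of the sequence, and no binding data were used. Of the E-boxes, 5 from the purine, pyrimidine, folate and salvage routes are shown so that the letters around the box can be compared. The boxes stand 12 bases from either end of a run of 30 bases, on the strand of the gene, with the box in capitals. They lie at chr2:215312001-215312030 for ATIC, chr4:56435780-56435809 for PPAT, chr4:70993521-70993550 for DCK, chr14:64388326-64388355 for MTHFD1 and chr16:72008573-72008602 for DHODH. The box of PPAT also lies in the window of PAICS, so these genes count 1 box between them.
ATIC: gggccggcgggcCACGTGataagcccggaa
PPAT: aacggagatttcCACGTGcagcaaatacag
DCK: cgccccggccttCACGTGacctggcgtgcg
MTHFD1: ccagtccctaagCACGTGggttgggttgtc
DHODH: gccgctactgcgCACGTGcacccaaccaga

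To compare genes with each other, each base mean was divided by the length of all annotated exons of the gene in kilobases and expressed per 1000000 of the same quantity summed over all genes. This is called the length-scaled level here. The 39 enzymes were mostly abundant. In bulk RNA such as this, fewer cells that express a gene and less RNA per cell cannot be told apart. Their median length-scaled level lay at percentile 89.0 of the 17298 protein-coding genes with a base mean above 0 in the knockdown experiment, and at percentile 89.0 of 17050 such genes in the inhibition experiment. In both experiments 37 of the 39 enzymes were above percentile 50, and those above percentile 90 numbered 18 and 17. The other 2, CTPS2 and CDA, were below percentile 50 in both. The exon union includes retained introns, and for 21 of the 39 genes it is more than 1.5 times as long as the MANE Select transcript, the reference transcript agreed between RefSeq and Ensembl. Levels scaled by that transcript are given where they change an order described here.

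**Figure D1:**
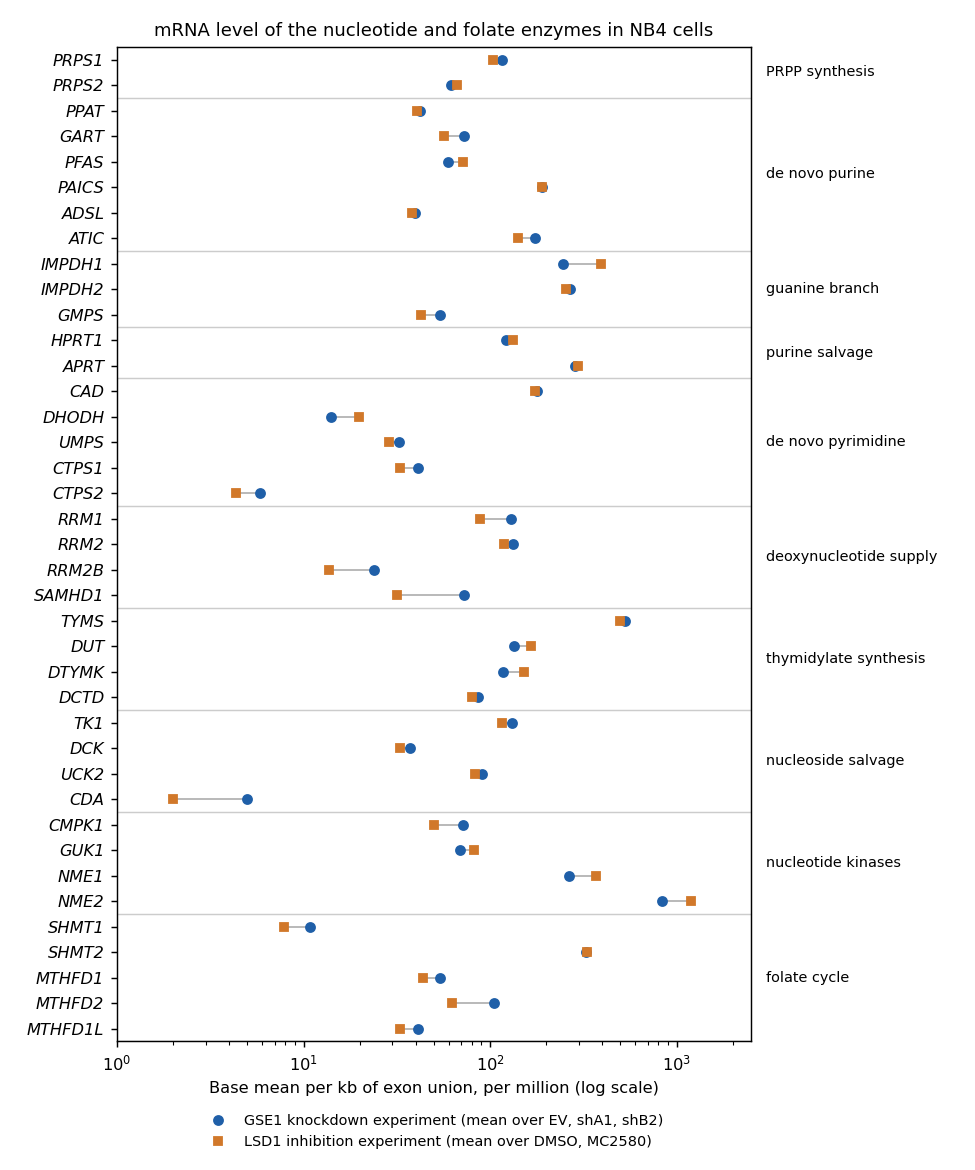
Length-scaled level of each enzyme (horizontal axis, base mean per kilobase of exon union, per 1000000 over all genes, log scale), grouped by role. Circles are the knockdown experiment mean, taken to cover EV, shA1 and shB2 libraries, and squares the mean over DMSO and MC2580 libraries. No error is available. NME2 was the highest of the 39 and CDA the lowest in both experiments.

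PRPP is made by the synthetases PRPS1 and PRPS2. PRPS1 (chromosome X, 107628428 to 107651993) had base means of 4276 in the knockdown and 4225 in the inhibition experiment, and PRPS2 had 1843 and 2199. Per length, PRPS1 was 1.89-fold above PRPS2 in the knockdown experiment and 1.56-fold above it in the inhibition experiment, so that it supplied 65.4% and 61.0% of the pair.

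The de novo purine chain is carried by PPAT, GART, PFAS, PAICS, ADSL and ATIC. PPAT, the amidotransferase of the committed step, had base means of 2481 in the knockdown and 2638 in the inhibition experiment. GART, which holds 3 activities of the chain in 1 protein, had base means of 6146 and 5249. PAICS, which joins a carboxylase and a synthetase, had 15607 and 17190, more than the other members of this group in both experiments. PFAS had base means of 4163 and 5564, ADSL of 5199 and 5532 and ATIC, whose protein closes the purine ring, of 7160 and 6468. Length-scaled levels put PAICS at percentile 95.6 in the knockdown experiment, with ATIC at 95.1 and ADSL at the low end of the group at 77.6. With MANE Select lengths both ends changed, with ATIC highest at 95.1, PAICS at 92.6, ADSL at 84.5 and PPAT lowest at 76.0. Across the start-site stretch shown above, PAICS was 4.55-fold above PPAT per length in the knockdown experiment and 4.71-fold above it in the inhibition experiment. Scaled by the MANE Select transcripts, these values were 3.64 and 3.77.

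From IMP, the dehydrogenases IMPDH1 and IMPDH2 lead to GMP with the synthetase GMPS. IMPDH1 (chromosome 7, 128392277 to 128409986, minus strand) had base means of 9077 in the knockdown and 16008 in the inhibition experiment. IMPDH2 (chromosome 3, 49024325 to 49029447, minus strand) had 14997 and 15809, so that the base means of the pair differed in the first experiment and were close in the second. The IMPDH1 share of the pair's length-scaled level was 47.7% in the knockdown experiment and 60.4% in the inhibition experiment. With MANE Select lengths it was 27.7% and 39.03%, so which of the isoenzymes leads in the inhibition experiment depends on the length used, while the share of IMPDH1 was higher there with either length. GMPS had base means of 5116 and 4496.

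The salvage enzymes of purine bases are HPRT1, for hypoxanthine and guanine, and APRT, for adenine. HPRT1 had base means of 2125 and 2559 in the knockdown and inhibition experiments, and APRT had 5584 and 6424. Per length both were high, at percentiles 92.5 and 97.2 in the knockdown experiment. APRT thus had a length-scaled level of 286 there, against 42.0 for PPAT.

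Pyrimidines are made by CAD, DHODH and UMPS, and CTP by CTPS1 and CTPS2. CAD, which joins the first 3 activities of the route in 1 protein, had base means of 16313 and 17658 in the knockdown and inhibition experiments. DHODH, the mitochondrial dehydrogenase that makes orotate, had 1056 and 1644. UMPS had base means of 2654 and 2590. Length-scaled levels in the knockdown experiment thus ran from percentile 95.2 for CAD through 74.2 for UMPS to 59.5 for DHODH. CTPS1 had base means of 5360 and 4730, and CTPS2 had 353 and 289. CTPS1 made up 87.5% of the CTP synthetase pair per length in the knockdown experiment and 88.3% in the inhibition experiment.

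Ribonucleotide reductase is built from the large subunit RRM1 and the small subunit RRM2, or its p53-inducible form RRM2B. RRM1 had base means of 5990 in the knockdown and 4506 in the inhibition experiment, and RRM2 had 13185 and 13053. RRM2B had 1405 and 889, so that RRM2 made up 84.7% and 89.6% of the small subunit level per length. SAMHD1 (chromosome 20, 36890229 to 36951893, minus strand), which breaks down deoxynucleoside triphosphates, had base means of 8535 and 4122. SAMHD1 and RRM2B were lower in the inhibition experiment, whereas RRM2 was almost level between the experiments.

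Thymidylate is made from dUMP by TYMS with folate as the carbon donor, and DUT and DCTD supply dUMP. TYMS (chromosome 18, 657653 to 673578) had base means of 13933 in the knockdown and 14415 in the inhibition experiment, with a length-scaled level behind only NME2 among the 39 enzymes in both by exon union. DUT, the dUTPase, had 5359 and 7342. DTYMK, which phosphorylates dTMP, had 3052 and 4364, and DCTD, the dCMP deaminase, had 3138 and 3219. DCTD was the lowest of these 4 genes per length, at percentile 89.0 in both experiments. With MANE Select lengths TYMS was in place 4 of the 39 in both.

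Nucleosides are salvaged by TK1, DCK and UCK2, and deaminated by CDA. TK1, the cytosolic thymidine kinase, had base means of 2626 in the knockdown and 2565 in the inhibition experiment. DCK, which phosphorylates deoxycytidine and activates cytarabine, had 1259 and 1223, and UCK2, a uridine-cytidine kinase, had 6885 and 6958. These 3 kinases were near level between the experiments. CDA, the cytidine deaminase that inactivates cytarabine, had base means of 44.3 and 19.7, the lowest of the 39 in both, at percentiles 46.3 and 39.8 per length.

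The kinases that raise nucleotides to diphosphates and triphosphates include NME2, which had the highest base mean of the 39 enzymes. NME2 (chromosome 17, 51165435 to 51171744) had base means of 22734 in the knockdown and 35816 in the inhibition experiment, and its neighbour NME1 (chromosome 17, 51153559 to 51162428) had 9792 and 15098. Length-scaled, NME2 alone made up 15.9% and 21.2% of the summed level of the 39 enzymes, and 25.3% and 32.3% with MANE Select lengths. It was 3.18-fold above NME1 in the knockdown experiment and 3.25-fold above it in the inhibition experiment. The 2 genes are close copies, and a readthrough gene, NME1-NME2, has an entry of its own with base means of 3176 and 3063, so the split of reads between these 3 entries is uncertain. GUK1, the guanylate kinase, had base means of 3547 and 4659, and CMPK1, the UMP-CMP kinase, had 3461 and 2680.

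The folate enzymes include a cytosolic and a mitochondrial serine hydroxymethyltransferase. SHMT2, the mitochondrial form, had base means of 16405 in the knockdown and 18340 in the inhibition experiment, whereas SHMT1, the cytosolic form, had 825 and 665. SHMT2 was 30.4-fold above SHMT1 per length in the knockdown experiment and 42.1-fold above it in the inhibition experiment, and made up 96.8% and 97.7% of the pair. MTHFD1, the trifunctional cytosolic enzyme, had base means of 10162 and 9131. Of the mitochondrial enzymes, MTHFD2, a dehydrogenase and cyclohydrolase, had 12993 and 8630 and MTHFD1L, the formate-producing ligase, had 2182 and 1946. MTHFD2 led these 3 genes per length, with 52.4% and 44.9% of their sum. With MANE Select lengths MTHFD1 led instead, with 47.3% and 53.4%, because its exon union is 5.50 times as long as that transcript.

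Of the 39 enzymes, 12 overlap another gene whose base mean reached 50. GART lies against SON on the opposite strand, whose base mean of 18178 in the knockdown experiment is 296% of that of GART. DCK and MOB1B overlap on the same strand, where the base mean of MOB1B is 62.7% of that of DCK, and ADSL and SGSM3 do as well, at 43.9%. UCK2 and TMCO1 lie on opposite strands, at 43.1%. Whether the counting used strand is not given in the sources used here, so reads of these pairs may not be fully separated. Pseudogenes with the names of 14 enzymes have entries too, and their summed base means were at most 1.59% of the enzyme's in the knockdown experiment and 1.74% in the inhibition experiment.

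The base means of the 2 experiments were then set side by side. The tables were normalized separately, and each mean mixes control and treated libraries, so the ratio is a description without a test. Lentiviral transduction, hairpins, compound, time in culture and sequencing run cannot be told apart in it. The log2 ratio of the inhibition over the knockdown experiment was centred on its median over the 10916 protein-coding genes that reached a base mean of 50 in each experiment, which removed a shift of -0.07. CDA fell under this minimum, and 38 of the 39 enzymes were compared.

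At more than 1.5-fold in either direction stood 7 of the 38 enzymes (18.4%), against 18.5% of all compared genes, so the enzymes differed between the experiments about as often as other genes. The 5 higher in the inhibition experiment (13.2%) were IMPDH1, NME2, DHODH, NME1 and DTYMK, while 8.38% of all compared genes were higher by that much. NME1 and NME2 count as 2 genes here, although the split of their reads is uncertain. The 2 lower (5.26%) were SAMHD1 and RRM2B, against 10.1% of all compared genes. Without centring, 4 enzymes were higher and 3 lower, as DTYMK left and MTHFD2 entered, and over all genes the split moved from 915 higher and 1105 lower to 680 and 1382. With each table scaled to its total, the same 4 and 3 enzymes were past the limit, with 608 and 1483 genes. The median log2 ratio of the 38 enzymes was 0.09, with 25 above 0 and 13 below. Without centring the median was 0.026, with 20 above 0 and 18 below, and with each table scaled to its total it was 0.0028, with 19 above and 19 below. The median over all compared genes was 0 with centring, -0.069 without it and -0.092 with each table scaled to its total. The median of the enzymes thus stayed above that of all compared genes in each setting. At less than 1.2-fold were 22 of the 38, against 45.9% of all genes.

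IMPDH1 was 1.85-fold higher in the inhibition experiment, with a log2 ratio of 0.89 that exceeded 98.1% of the compared genes. It was the only enzyme outside the central 95% of genes, which ran from -1.01 to 0.82. NME2, DHODH and NME1 followed, at 1.65-fold, 1.63-fold and 1.62-fold. SAMHD1 was 1.97-fold lower in the inhibition experiment, with a log2 ratio of -0.98, below all but 2.80% of the genes. RRM2B was 1.51-fold lower.
DTYMK barely passed the limit of 1.5-fold, whereas DUT, at 1.44-fold higher, did not reach it. Among those lower, MTHFD2 did not reach it either, also at 1.44-fold. By role, the 4 thymidylate genes were all above 0, from 0.11 for DCTD to 0.58 for DTYMK, and 3 of the 4 genes for deoxynucleotide supply were below 0. The other one, RRM2, was at 0.05, a sign that turns without centring. Centring on the median puts as many of all compared genes above 0 as below it. The PRPP genes, the purine salvage genes and the compared nucleoside salvage genes were also all above 0. Of the folate genes only SHMT2 was above 0, and the remaining roles had genes on either side. These signs by role were not tested. The proliferation markers MKI67 and TOP2A had log2 ratios of -0.71 and -0.86 and PCNA of 0.08. Their part in the enzymes' ratios was not tested.

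The other genes listed from the same routes were less abundant on the whole. Of 22 further folate genes, 7 had a base mean under 10 in both experiments: FOLR1, FOLR2, FOLR3, SLC46A1, GLDC, FTCD and ALDH1L1. The median length-scaled level of the 22 genes was at percentile 47.1 in the knockdown experiment. It was at 82.7 for the 5 folate enzymes described above and at 89.0 for the 39 enzymes. By MANE Select length the 5 folate enzymes were at 93.8 and the 39 enzymes at 89.8, so their order changed. The highest of the 22 genes per length were DLD, FPGS and MTHFS, at percentiles 92.8, 87.6 and 75.4 in the knockdown experiment. By MANE Select length SLC19A1, the reduced folate carrier, followed FPGS at percentile 79.7, with MTHFS at 70.8. FPGS, which adds the glutamate tail that keeps folates and methotrexate in the cell, had base means of 3281 and 4047. The folate receptors had base means of at most 2.08, whereas SLC19A1 had 4203 and 5503. Past 1.5-fold between the experiments were AMT, 1.65-fold higher in the inhibition experiment, and ALDH1L2, a mitochondrial formyltetrahydrofolate dehydrogenase, 3.84-fold lower.

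Of 19 genes of purine salvage and breakdown, the median was at percentile 62.9 in the knockdown experiment, and DGUOK, PNP and ITPA were highest per length, at percentiles 96.1, 95.4 and 94.8. By MANE Select length PNP led at 98.1, before ITPA at 94.7 and DGUOK at 94.2. PNP, the purine nucleoside phosphorylase, had base means of 11595 and 13350, whereas XDH, which makes urate, was at 0.08 and 0 and AMPD1, GDA and NT5E were also under 10 in both experiments. AK4 was the gene of this list past 1.5-fold, with base means of 76.1 and 205, which is 2.83-fold higher in the inhibition experiment. Of 18 genes of pyrimidine salvage and breakdown, the median was at percentile 58.3, and NT5C, UCKL1 and NME4 were highest per length, at percentiles 87.5, 86.7 and 83.0. By MANE Select length NME4 led at 91.7, before NT5C at 86.5 and UCKL1 at 85.9. UPP2 and DPYS were under 10 in both experiments. NME4, NT5M and NT5C were 2.07-fold, 2.18-fold and 1.52-fold higher in the inhibition experiment, and CMPK2 was 1.91-fold lower.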

How the data were processed

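The authors mapped reads to hg38 with STAR, estimated gene counts with RSEM and fitted DESeq2. The deposited signal values used here are base means, averages of counts divided by size factors. They are taken to run over all libraries of an experiment, although the knockdown column is headed for shB2 only. The other columns hold the authors' own comparisons of shA1 and shB2 with EV and of MC2580 with DMSO (fold changes, standard errors, Wald statistics and p-values). These were not used, and without values per library no test, error or replicate check was possible. The study calls its replicates biological.

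Gene lengths came from GENCODE release 44 (GRCh38), to which 60261 genes matched by stable identifier. The authors' annotation release is not given in the sources used here. Ratios were centred on the median, and 1.5-fold was counted. All 39 enzymes are named. Other pathway genes are named when among the 3 highest of their list or under a base mean of 10, with FOLR1 to FOLR3 given by their maximum. Those past 1.5-fold and SLC19A1, GGH and MTRR were named after their values were seen. Some items are not reported here. Members and lists were chosen with earlier results of these data known. Calculations used Python 3.11.15 and pandas 2.3.3 and were tested on simulated data.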

Additional observations from a re-analysis of the deposited data

How the results depend on the processing

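The 7 enzymes past 1.5-fold between the experiments stayed 7 without centring, with each table scaled to its total, and with the minimum base mean lowered to 10, although DTYMK left in each case, replaced by MTHFD2 or CDA. At 2-fold the count was 0, against 3.69% of all compared genes. The median length-scaled level of 86.2 in the knockdown experiment was 96.1 with the longest coding transcript, 93.8 with the annotated coding length, 108 with the MANE Select transcript and 107 as a share of nuclear protein-coding genes. In the inhibition experiment the median of 80.0 became 80.5, 86.0, 88.4 and 102. The median percentile of 89.0 in the knockdown experiment became 84.8 against genes that reached a base mean of 10, 89.4 with the longest coding transcript, 90.1 without length, 89.8 with MANE Select and 88.7 with the coding length. In the inhibition experiment these values were 85.1, 88.2, 89.0, 88.2 and 88.2.

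IMPDH1 no longer led its pair in the inhibition experiment with the longest coding transcript (40.4%), the coding length (47.6%) or the MANE Select transcript (39.03%). MTHFD2 no longer led its family with the MANE Select transcript (43.4% in the knockdown and 36.2% in the inhibition experiment) or, in the inhibition experiment, without length (43.8%). The leaders of the other 5 families were kept under every length tried. The MANE Select and coding lengths were chosen after seeing the data, and the planned scaling by RefSeq protein length was not run. No paired analysis was possible because the tables used hold no value per replicate, and for the same reason no library could be left out. Precision of the base means is unknown.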
